A study of Pleurodeles waltl with 10 samples.

Results

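The SLC1 family comprises the sodium-coupled transporters of glutamate and of neutral amino acids. Its members were looked up in the transcript catalogue of a single-cell study of the larval forebrain of the Iberian ribbed newt, Pleurodeles waltl. All rows were taken whose gene name, ignoring case, was SLC1A1, SLC1A2, SLC1A3, SLC1A4, SLC1A5, SLC1A6 or SLC1A7. These are 7 of the 16771 gene names in the catalogue. The choice was made with transcript numbers of this catalogue known, so the numbers below are a description and no test was made on them.

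The study comprised 10 libraries from forebrains collected at stage 55, of which 5 held gene expression and 5 the matching multiplexing oligos, short DNA barcodes that mark pools of cells. Every animal was injected with the PHP-GFP virus earlier in larval life. Injection was at stage 37 for 2 of the expression libraries, at stage 41 for 1 and at stage 51 for 2, and the oligo libraries were divided in the same way. No group without virus is among these libraries, and the cells that the virus reaches are not stated in the labels. Expression per library was not analysed here, the depth of the libraries is unknown, and no comparison of the injection stages was made. What was measured is how many distinct transcripts the catalogue lists under each gene name. Such a number is not an expression level, has no replicates, and depends on how the catalogue was built. No glial or neuronal identity of any cell could be checked from it.

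Glutamate released at synapses is cleared by transporters that move it into cells together with sodium ions. In mammals SLC1A3 (GLAST) and SLC1A2 (GLT-1) are the glial members, in radial glia and astrocytes, and SLC1A2 carries most of the uptake in the adult forebrain. SLC1A1 is a mainly neuronal glutamate transporter, SLC1A6 is best known from cerebellar Purkinje cells, and SLC1A7 from the retina. SLC1A4 and SLC1A5 exchange neutral amino acids, among them serine and alanine, and do not belong to the glutamate-transporting branch. These roles are known from mammals, and radial glia persist in the adult salamander brain.

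All 7 members were present, with 227 distinct transcripts in total. The share of named genes of this species that the catalogue holds is not given here, so presence has no background. The catalogue names nearly all its transcripts in 2 forms, and all SLC1 transcripts have these forms. Those starting with pt_ contain HQ_transcript, a form that long-read software writes, and are called HQ transcripts here. Those starting with TRINITY_ carry the name of a short-read assembler. HQ transcripts made up 220 of the 227 (96.9%, 95% Wilson interval 93.8% to 98.5%), and TRINITY transcripts 7. The same share over all other gene names was 82.7%, and over the other 334 gene names that start with SLC it was 84.3%. By member the share ran from 0% for SLC1A7 and 80% for SLC1A4 to 99.2% for SLC1A3, which held 130 of the 220. Each member had 1 TRINITY transcript, so its share follows from its HQ number alone. Transcripts of a gene are not independent draws, so intervals on such shares serve only as a scale and cover counting error only.

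Of the glial pair, SLC1A3 had 130 HQ transcripts and 1 TRINITY transcript. SLC1A2 had 18 HQ transcripts and 1 TRINITY transcript. The pair therefore held 150 of the 227 transcripts (66.1%, 59.7% to 71.9%), against 77 (33.9%) in the other 5 members. This share rested on SLC1A3, which alone held 57.7% of the family (51.2% to 64.0%) and 6.89 times the number of SLC1A2. SLC1A2 alone held 8.37%.

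Among the other glutamate transporters, SLC1A6 had 37 HQ transcripts and 1 TRINITY transcript. It was second in the family and accounted for 38 of the 77 transcripts outside the glial pair. SLC1A1 had 11 HQ transcripts and 1 TRINITY transcript. SLC1A7, the member known from the retina, had 0 HQ transcripts and 1 TRINITY transcript, and was the only member without HQ support. In a list of names, 0 means only that no HQ transcript was given this name.

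The neutral amino acid exchangers also differed from each other. SLC1A5 had 20 HQ transcripts and 1 TRINITY transcript, which places it just above SLC1A2. SLC1A4 had 4 HQ transcripts and 1 TRINITY transcript. Together they held 26 of the 227 transcripts (11.5%, 7.94% to 16.3%), and the 5 glutamate transporters held 201.

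By number of transcripts the order was SLC1A3 (131 transcripts), SLC1A6 (38 transcripts), SLC1A5 (21 transcripts), SLC1A2 (19 transcripts), SLC1A1 (12 transcripts), SLC1A4 (5 transcripts) and SLC1A7 (1 transcript). SLC1A5 and SLC1A2 were close, with 9.25% and 8.37% of the family. As a scale only, their counting intervals were 6.13% to 13.7% for SLC1A5 and 5.42% to 12.7% for SLC1A2. Whether these 2 members differ was not tested. By these numbers the glial pair was split, with 2 members between SLC1A3 and SLC1A2. Counted by TRINITY transcripts, all 7 members were equal.

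**Figure D1:**
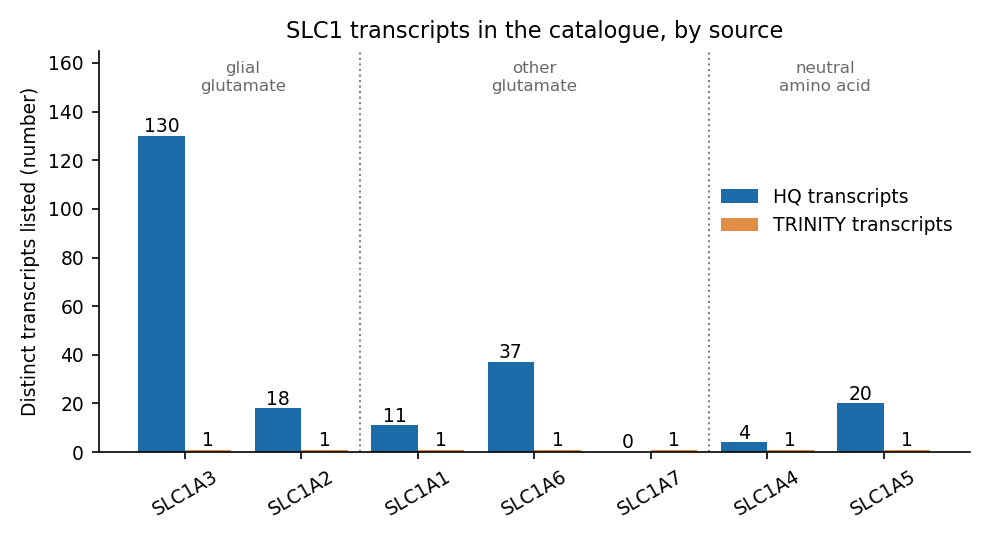
Number of distinct transcripts listed for each SLC1 member (y axis, linear, from 0), with HQ transcripts in blue and TRINITY transcripts in orange; dotted lines separate the glial glutamate transporters, the other glutamate transporters and the neutral amino acid exchangers. SLC1A3 stands at 130 HQ transcripts, the next member, SLC1A6, at 37, and every member has 1 TRINITY transcript.

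Set beside the rest of the catalogue, the median member had 19 transcripts, against a median of 6 over all 16764 other gene names and 5.5 over the other 334 SLC names. The lower and upper quartiles of the other gene names were 2 and 14 transcripts, and the members lay between 1 and 131. SLC1A3 had more transcripts than 99.7% of the other gene names, with 52 names above it. SLC1A6 exceeded 93.9% of them and SLC1A5 83.7%. SLC1A2 exceeded 81.5% of the other gene names and SLC1A1 69.9%. The remaining members were not in the upper part of the range. SLC1A4 exceeded 44.2% of the other names, so it had slightly fewer transcripts than their median, and SLC1A7 had a single transcript, as did 2844 other names (17.0%). By rank the family thus ran from the lowest number to above 99.7% of the other names, whose highest number was 339 transcripts. Its high median did not extend to SLC1A4 and SLC1A7.

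**Figure D2:**
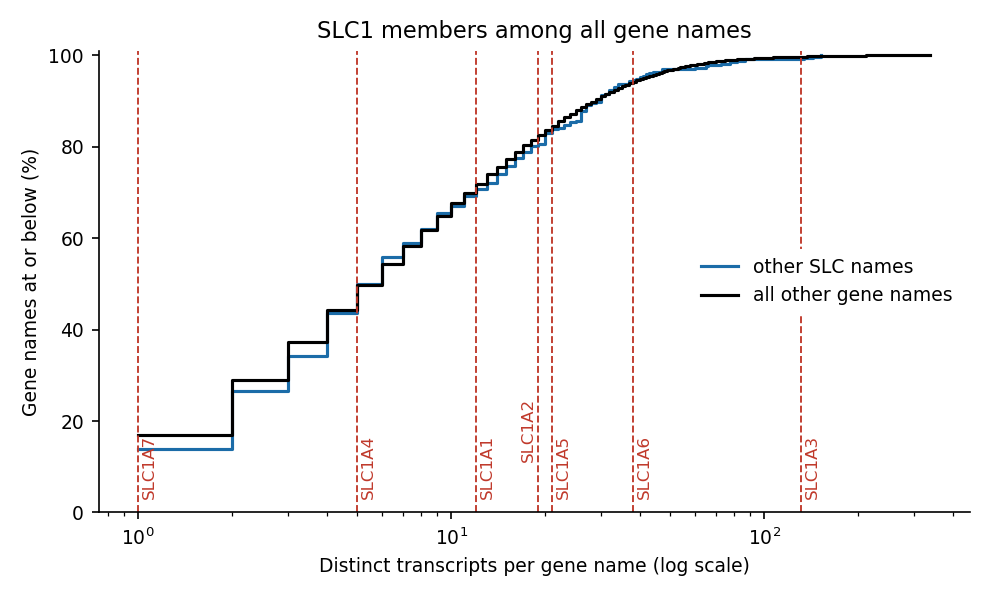
Cumulative share of gene names (y axis, %) by number of distinct transcripts per gene name (x axis, log scale), for all other gene names in black and other SLC names in blue; red dashed lines mark the SLC1 members. SLC1A7 lies at the lowest value and SLC1A4 near the middle, whereas SLC1A3, at 131 transcripts, lies above 99.7% of the other names.

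The TRINITY numbers were even across the members, unlike the HQ numbers. Both sources supported 6 of the 7 members, against 70.6% of all other gene names and 74.3% of the other SLC names. TRINITY transcripts alone supported 1 member, SLC1A7, against 28.1% of the other gene names and 24.9% of the other SLC names. With 7 members a single gene moves such shares widely, and whether they differ was not tested. A TRINITY number of exactly 1, found for all 7 members, was also the most usual one elsewhere. It was found for 50.9% of the other gene names and 56.3% of the other SLC names. The HQ numbers therefore carried all differences between members. The median member had 18 HQ transcripts, against 3 for the other gene names.

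Spelling and double listing, which divide or repeat the transcripts of some genes, did not touch the family. Each member was written in 1 way, each transcript was listed once, and 0 SLC1 transcripts also stood under another gene name. In the whole catalogue 45 of 194333 distinct transcripts did, so this was rare throughout and is no trait of the family. The share of other gene names written in 1 way is not given here. No other gene name started with SLC1A. By symbol, 6 members matched the RefSeq gene table of this species (assembly aPleWal1.hap1), and SLC1A6 did not. The name SLC1A6 therefore rests on the catalogue alone. The members are paralogs, and the division of transcripts between their names was not checked, since no sequence was used. Of the other SLC names, 82.0% matched, and of all other gene names 74.2%.

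The names also show where the listed transcripts may be a part of a larger set. The numbers in HQ names run from 0 to 289998, and 129312 of these numbers (44.6%) are not listed under any gene name, so SLC1 transcripts among them would be missed. An assembler numbers the isoforms of a cluster upwards from 1. The isoform number was 8 for SLC1A3, 2 for SLC1A2, 5 for SLC1A6 and 2 for SLC1A1, although each had a single TRINITY transcript listed. These are 4 of the 7 members, and 46.2% of all TRINITY clusters skipped at least 1 number in this way. The number was 1 for SLC1A4, SLC1A5 and SLC1A7. For 3 members the leading part of the TRINITY transcript name, TRINITY_DN and its number, also appeared under a further gene name. These were SLC17A9 for SLC1A3, LGMN for SLC1A4 and STAT3 for SLC1A6. Over the catalogue, 13.5% of such leading parts carried more than 1 gene name. That share counts leading parts and not gene names, so it is no like background for 3 of the 7 members. The next part of the name, which can divide them further, was ignored.

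Among solute carriers, a large class of membrane transporters named SLC with a family number, 3 names had more transcripts than SLC1A3. They were SLC17A7, a vesicular glutamate transporter of neurons (152 transcripts), SLC12A2, a sodium-potassium-chloride cotransporter (143 transcripts), and SLC16A6, a monocarboxylate transporter family member (134 transcripts). Among the SLC names close to SLC1A3 in their HQ and TRINITY numbers were SLC4A10 (81 HQ and 1 TRINITY transcript) and SLC8A2 (77 HQ and 1 TRINITY transcript). Closeness was the Euclidean distance of log2(number + 1), which was 0.68 for SLC4A10 and 0.75 for SLC8A2. Among those close to SLC1A2 were SLC45A4 and SLC7A4, each with 19 HQ transcripts and 1 TRINITY transcript at a distance of 0.07.

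Of the 49 SLC families in the catalogue, 21 had at least 5 gene names. By median transcripts per gene name SLC1 was second of these 21, with 19, after SLC4, the bicarbonate transporters, with 20 over 11 names. By total transcripts it was sixth. Its share of HQ transcripts, 96.9%, was the highest of the 21, ahead of SLC4 (95.4%) and SLC17 (93.84%). Without SLC1A3 the share was 93.75%, below SLC4 and, narrowly, SLC17 with all their names kept. The leading genes of SLC4 and SLC17 were not left out in the same way, so that comparison is unequal. The share of the family's transcripts held by its leading gene was also near the top of the range. SLC1A3 held 57.7% of SLC1, next after SLC17A7 with 72.0% of SLC17, and SLC12A2 held 57.7% of SLC12. This share was not adjusted for the number of names, which was 5 for SLC17, 7 for SLC1 and 8 for SLC12. The largest family, SLC25, had 45. A family of 7 names gives a median that each single name can move, and without SLC1A3 it was 15.5.

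**Figure D3:**
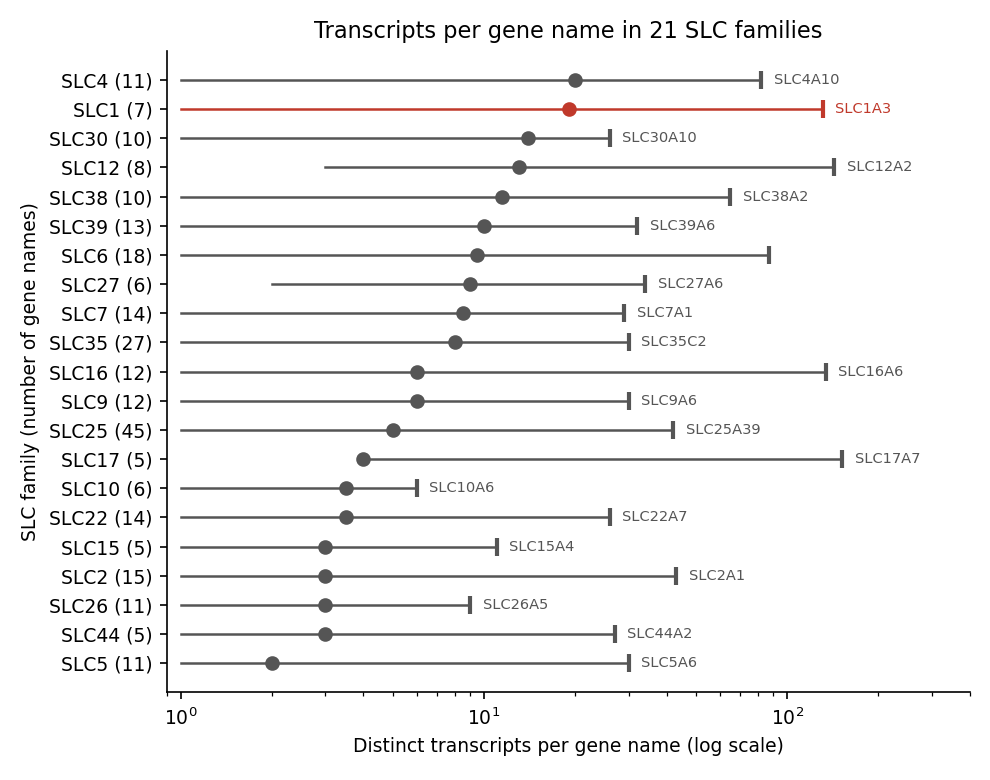
Distinct transcripts per gene name (x axis, log scale) in the 21 SLC families with at least 5 gene names (y axis, number of names in brackets); dots are medians, lines run from the lowest to the highest member, and the highest member is named for all but SLC6. SLC1, in red, has the second highest median (19) and runs from 1 to 131.

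Genes that act beside these transporters were taken as 7 lists of 43 genes in all, chosen with earlier results of the catalogue known. All 43 were present, again without a background share of genes found. The SLC1 members had a median of 19 transcripts, against 13 for these genes. SLC1A3 was exceeded by 1 of the 43, SLC17A7, and SLC1A2 by 13.

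Enzymes of glutamate metabolism had a median of 14 transcripts over 5 genes. The highest was GLUL, glutamine synthetase, which turns glutamate taken up by glia into glutamine, with 52 transcripts. GOT2, the mitochondrial aspartate aminotransferase, had 20 transcripts and GLS2, a glutaminase, had 4. GLUL had fewer than SLC1A3 and more than SLC1A2.

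The vesicular glutamate transporters load the transmitter into synaptic vesicles. SLC17A7 had 152 transcripts, SLC17A6 had 47, and SLC17A8 had 4, of which 0 were HQ transcripts. This family was also led by a single member. The subunits of the cystine-glutamate exchanger differed likewise, with 32 transcripts for the shared heavy chain SLC3A2 and 5 for SLC7A11.

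The other neutral amino acid transporters overlapped SLC1A4 and SLC1A5. Their median was 9 transcripts over 14 genes, with SLC38A2 (65 transcripts), SLC7A8 (28 transcripts) and SLC38A4 (26 transcripts) as the highest. SLC38A7 and SLC6A15 had 2 transcripts each, and SLC7A10 had 3. SLC1A5, with 21, was thus above their median and SLC1A4, with 5, below it. The symbol SLC38A7 did not match the RefSeq gene table, so this name rests on the catalogue alone.

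Transporters of the inhibitory transmitters had a median of 18 transcripts over 4 genes. SLC6A11, a GABA transporter of astrocytes in mammals, had 33. SLC6A5, the glycine transporter of glycinergic neurons, had 2.

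Genes for the ion gradients that drive uptake and for a partner protein had a median of 16 transcripts over 5 genes. The sodium pump beta subunits ATP1B1 and ATP1B2 are paralogs, so the division of transcripts between their names is uncertain. ATP1B1 had 39 transcripts and ATP1B2 had 3. KCNJ10, a potassium channel of glia, had 19 transcripts, the same number as SLC1A2. ARL6IP5, which binds SLC1A1 in mammals, had 16.

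Markers of radial glia and astrocytes had a median of 11.5 transcripts over 10 genes. Of the 10, 7 lay above 6, the median of all other gene names. Among those other names, 54.4% had 6 transcripts or fewer. Whether the markers differ from them was not tested. AQP4, the water channel of astrocyte endfeet, had 64 transcripts, and HES5, a Notch target in radial glia, had 33. GJA1, the gap junction protein connexin 43, had 17. VIM had 14 transcripts, SOX9 12, ALDH1L1 11 and GFAP 8. Below the median of 6 were FABP7 with 5 transcripts, NES with 3 and S100B with 1. SLC1A3 had more transcripts than all 10 and SLC1A2 more than 8 of them. Outside the glial pair, SLC1A5, with 21 transcripts, exceeded the same 8, and SLC1A6, with 38, exceeded these and HES5. Standing above most markers was therefore not particular to the glial pair. The symbols AQP4 and HES5, the 2 markers above SLC1A2, and S100B, the lowest, did not match the RefSeq gene table, so these names rest on the catalogue alone. Over all gene names outside SLC1, 74.2% matched, so unmatched symbols are no trait of the markers.

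**Figure D4:**
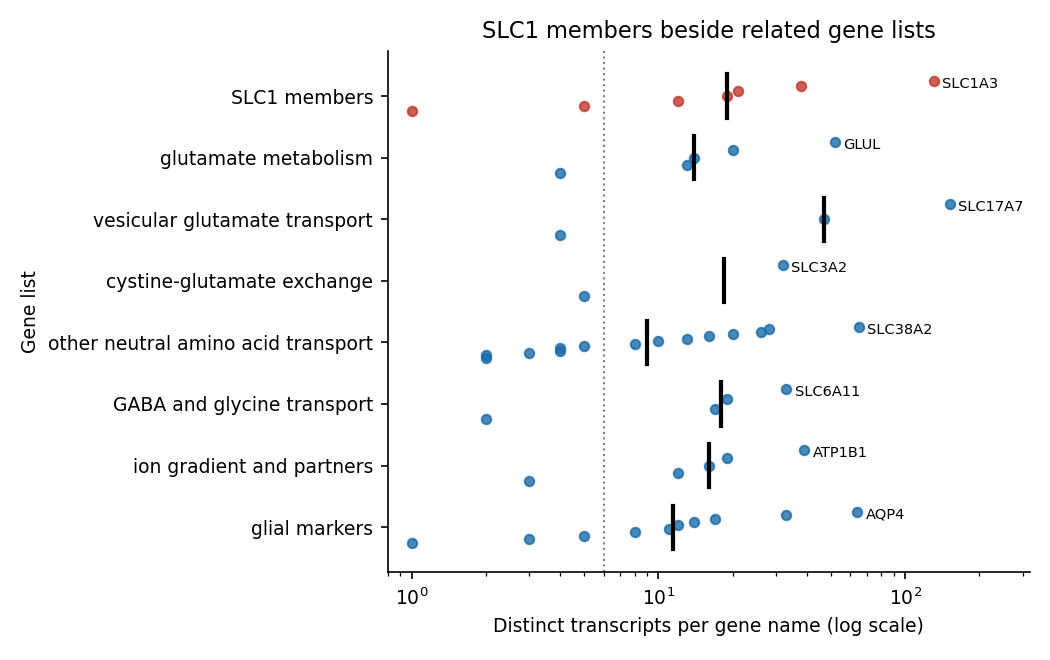
Distinct transcripts per gene name (x axis, log scale) for the SLC1 members (red) and 7 lists of related genes (blue), each point a gene, with the list's median as a black bar and the median of all other gene names, 6, as a dotted line. SLC17A7 (152) is the only gene of these lists above SLC1A3 (131); vertical offsets only separate points.

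The nearest named genes on the chromosomes give a further background, since they were picked by position among protein-coding genes with a symbol. RefSeq names were used for order only. Genes known only by a LOC number were passed over, so a neighbour need not be the adjacent gene. The share of all such named genes that the catalogue holds is not given here. The 12 protein-coding neighbours of the 6 matched members were all in the catalogue, with a median of 4 transcripts and a range from 1 to 60. SLC1A3 lies between RANBP3L (1 transcript) and NIPBL, a cohesin loader (60 transcripts). SLC1A2 lies between PAMR1 and CD44, a hyaluronan receptor, with 4 transcripts each. Both glial members exceeded both of their neighbours. SLC1A7 stood below CPT2 (12 transcripts) and PODN (4 transcripts), and SLC1A4 below CEP68 (15 transcripts). Outside these, each of the remaining neighbours had fewer transcripts than its own member.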

How the data were processed

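Single-cell libraries of newt forebrain were made by the study, with papain dissociation for 30 min. The table used, as deposited by the authors, is no measurement of samples: it pairs a transcript name with a gene name on each of 194406 lines (194333 distinct transcripts) and holds no counts of reads. How it was made is not given in the sources used here. Salmon 1.6.0 and alevin are named in the submitters' processing notes, without their role. It has 2 columns, and 0 of them belong to a sample. The oligo barcode table was not used.

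Names were folded to upper case and distinct transcripts counted per gene name. A TRINITY cluster is a transcript name without its isoform number. The members and gene lists were chosen with earlier results of these data known. Of each list the text names up to 3 genes with the most and the fewest transcripts, and some others chosen after their values were seen. Some genes of the planned lists, and some names near SLC1A2 and SLC1A3, are not reported here. RefSeq symbols served for names and gene order only. Intervals are 95% Wilson intervals. Counting was tested on simulated data. Python 3.11.15, pandas 2.3.3, scipy 1.17.1 and matplotlib 3.10.9 were used.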

Additional observations from a re-analysis of the deposited data

How the results depend on the processing

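The 5 results on SLC1 (members present, total, median, share of the glial pair, share of HQ transcripts) were recomputed under 16 alternatives, in 43 comparisons, of which 6 moved. In 26 of the 43 the value was identical, mostly under settings that could not change it, so these are no sign of stability. Alternatives that left out or singled out a member were chosen after seeing the data. A count or median counted as moved when it differed by more than 1.5 times, and a share when it left its Wilson interval. The interval served here only as a scale, so moved is a label and not a test. TRINITY transcripts alone gave a total of 7, a median of 1 and 28.6% for SLC1A2 and SLC1A3, because each member has 1 such transcript. Without SLC1A3 the total was 96 and the HQ share 93.75%, only just under its lower limit of 93.77%. SLC1A2 alone gave 8.37% in place of 66.1%, since SLC1A3 holds most of the family. HQ transcripts alone gave a total of 220, a median of 19 over the 6 members that have any, and 67.3% for the pair. Leaving out each member in turn gave medians from 15.5 to 20, and the geometric mean was 14.2. Upper-case spelling alone, every row counted, TRINITY clusters, omission of transcripts with several gene names, and any name starting with SLC1A changed no value. They could not, because the members had a single spelling, a single TRINITY transcript each and no double listing, and no other name started with SLC1A. The planned comparison of SLC1A2 and SLC1A3 proteins was not run, since no protein sequence was used here. No paired analysis was possible because the table holds no values per library, and no library could be left out.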
